A study of Homo sapiens with 5 samples.

Results

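The comparison described here sets forskolin directly against follicle-stimulating hormone (FSH) in the same cells, without going through the control: 1 library of KGN cells given forskolin (FSK) and 1 library of KGN cells given FSH, out of 5 libraries in the series. Its members are the genes with at least 100 TMM-scaled counts in the higher of these libraries, which were 12609 of 35453 gene names; the other 22844 were not compared. The minimum fell between ADAM28, at 100.4 scaled counts in its higher library, and ACSS1, at 99.95. A gene was called higher or lower with FSK when the libraries differed by at least 2-fold, and 418 genes were higher (3.32%) and 569 lower (4.51%).

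KGN is an established line from a human granulosa cell tumour, and it stands in for the follicle cells that respond to FSH. The medium of all 5 groups was charcoal-stripped and held androstenedione, the substrate of aromatase, at 100 nmol/L, and treatment lasted 24 h. The groups were a control (ethanol in the protocol, untreated in its title), FSH at 100 ng/mL and FSK. The other groups were given the AKT activator SC79 at 4 µg/mL or the protein kinase C activator phorbol myristate acetate (PMA). Ethanol below 0.05% of the volume was listed for all 5 groups. The treatment label gives 10 mmol/L for FSK and 0.1 mmol/L for PMA, where the protocol carries a symbol character that stands for micro. Each library was made from 270 ng of RNA, pooled from 3 cultures of 3 different weeks at 90 ng each. The hormone and the drug were each used at 1 dose and 1 time, so every difference below belongs to these doses and this time. Because each group is 1 pooled library, no difference has a replicate check and no p-value was computed. Ratios are given with exact binomial 95% intervals in parentheses, which cover counting error alone: the reads carry no molecular identifiers, so they are not independent molecules.

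FSH acts through its receptor FSHR, a membrane protein that couples to the stimulatory G protein and so to adenylyl cyclase. The cAMP that is made releases the catalytic subunits of protein kinase A (PKA), which phosphorylate CREB and other factors and so raise the genes of oestradiol synthesis, such as CYP19A1, in granulosa cells. Forskolin binds adenylyl cyclases themselves and raises cAMP with no need of a receptor. Phosphodiesterases break cAMP down again.

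The 5 library totals, in units of 1e+06 estimated counts, lay between 50.2 and 58.8, with 53.5 for FSH and 52.3 for FSK. Of 12 granulosa markers, 11 reached 100 scaled counts in the FSK or FSH library, among them FOXL2 and AMHR2, while WT1 was listed at 0 in both. Among markers of other cells, CD3E, MS4A1 and TYROBP of immune cells were at 0 in all 5 libraries, and 0 of 9 oocyte markers reached the minimum. CDH5 of endothelium had at most 1.999 scaled counts, but 3 of 8 endothelial markers reached the minimum. Summed endothelial markers were at 2847 scaled counts with FSH and 3182 with FSK. The summed level of the 10 immune markers was 952 scaled counts with FSH and 993 with FSK, almost all of it CD68. Summed theca and stroma markers were at 753770 and 548414 scaled counts, and summed epithelial markers at 62566 and 37409; whether other cells have a part in any result was not tested.

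**Figure D1:**
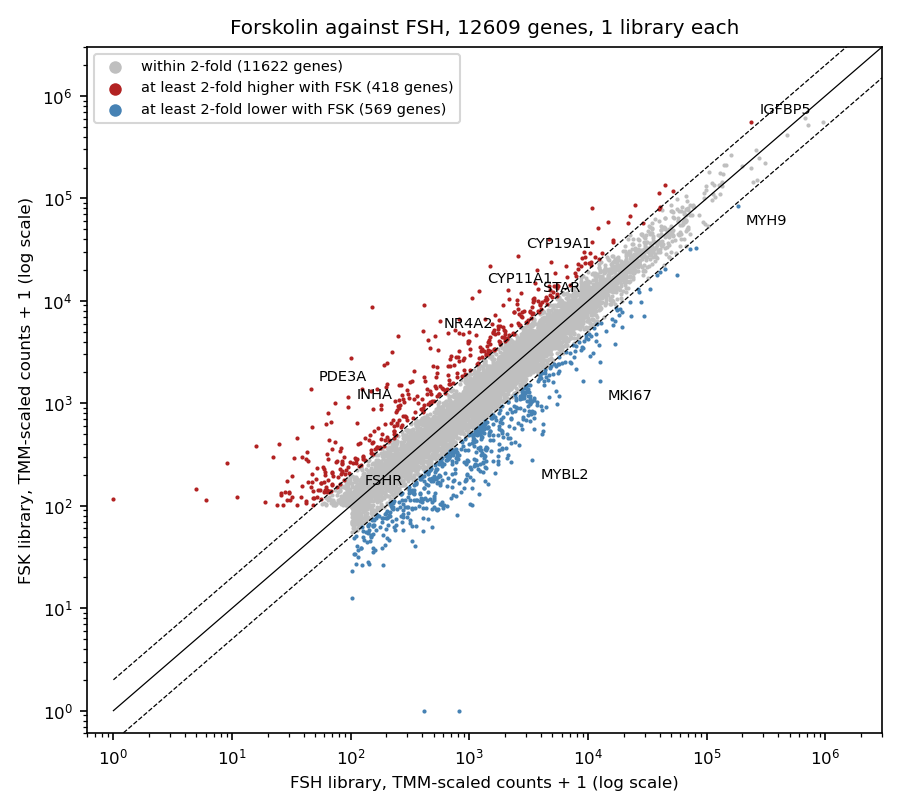
Scaled counts of each of 12609 genes in the FSH library (horizontal) and the FSK library (vertical), both plus 1 and on log scales. The solid line marks equal levels and the dashed lines 2-fold; 418 genes lie on or above the upper line and 569 on or below the lower one.

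Most genes stood at nearly the same level in both libraries. The median log2 ratio of FSK over FSH (computed with 1 added to each scaled count) was 0.01 over all compared genes, 55.7% of them lay within 1.2-fold, and 90% of the genes fell between -0.94 and 0.77. At 4-fold, 103 genes were higher (0.817%) and 138 lower (1.09%). At 8-fold the order turned, with 38 higher (0.301%) and 12 lower (0.0952%). The genes called higher held 6.08% of all scaled counts with FSK against 2.23% with FSH, and those called lower 1.29% against 3.48%. Calls in each gene list below are to be read beside the 3.32% higher and 4.51% lower of all compared genes. The gene lists used below overlap in a few genes, and listed genes under the minimum were not compared: 7 of the receptor and cyclase list, 6 phosphodiesterases, 3 cAMP-CREB targets, 10 steroidogenic genes and 0 of the mitosis and replication lists.

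The sequences upstream of a few of these genes show the short elements that the pathway's textbook account turns on. They are given as a description of the letters only. Each is from the RefSeq promoter table (GRCh38.p14), 5′ to 3′ on the gene's strand and upstream of the annotated start. Capitals mark the element each line is shown for, which was searched for on both strands. Letters of other elements stay in lower case unless stated. The palindromic cAMP response element TGACGTCA, the site of CREB, was present upstream of AREG, DUSP1, PDE7B and FAT1, which were higher with FSK. It also stood upstream of CCNA2, CENPE, DTL, MCM10, NDC80, PRC1 and RFC3, which were lower. CREM and PRKAR1A had it too and were within 2-fold. The search behind these names covered only some of the compared genes, so they are not a complete list in any direction. Of the genes named, 5 are shown because the same 8 letters stand before genes that differed in opposite directions.
AREG, chr4:74445041-74445108, plus strand: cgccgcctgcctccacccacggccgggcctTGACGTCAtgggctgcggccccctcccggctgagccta
DUSP1, chr5:172771283-172771350, minus strand: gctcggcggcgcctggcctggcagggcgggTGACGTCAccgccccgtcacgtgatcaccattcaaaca
PDE7B, chr6:135851516-135851583, plus strand: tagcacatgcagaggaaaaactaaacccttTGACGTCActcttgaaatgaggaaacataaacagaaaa
CCNA2, chr4:121823927-121823994, minus strand: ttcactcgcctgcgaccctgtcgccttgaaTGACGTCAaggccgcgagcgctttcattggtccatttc
MCM10, chr10:13161499-13161557, plus strand: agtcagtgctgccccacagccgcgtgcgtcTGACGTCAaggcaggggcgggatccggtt

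The window before 1 of the CYP19A1 starts held CAAGGTCA, the letters of an NR5A1 (SF-1) type element, which begin 132 bases before that start. It is shown because CYP19A1 was among the genes furthest above FSH.
CYP19A1, chr15:51243124-51243191, minus strand: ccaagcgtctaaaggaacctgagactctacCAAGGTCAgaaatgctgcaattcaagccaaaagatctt

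Genes of cell division carry other short elements, and they are shown because many of the lowest ratios were in such genes. TTTGAA (or TTCAAA) is the letter sequence of the cell cycle homology region (CHR), read with CCAAT (or ATTGG) boxes in many mitotic promoters, and TTCCCGC (or GCGGGAA) and TTTGGCGC (or GCGCCAAA) are E2F site letters of S-phase genes. In the first 3 lines the capitals are CHR letters, with CCAAT or ATTGG letters too in MKI67 and CCNB2. In the last 3 they are E2F letters alone, and MCM6 holds ATTGG letters in lower case. In MKI67 the final CHR and ATTGG letters overlap. The same letters also stood upstream of genes that were higher with FSK. CHR letters stood before SLC1A3, PTGES, CYP19A1, PDE1A, ANTXR1, BDNF, DUSP1, FST, PDE4B, PDE4D, RAPGEF4, SGK1 and TM7SF2. E2F letters stood before RASD1, NPY and PDE4B. The names for both elements come from the same partial search and are not complete.
MKI67, chr10:128126424-128126500, minus strand: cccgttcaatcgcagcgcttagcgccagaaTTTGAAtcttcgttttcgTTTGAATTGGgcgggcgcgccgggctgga
PLK1, chr16:23678830-23678888, plus strand: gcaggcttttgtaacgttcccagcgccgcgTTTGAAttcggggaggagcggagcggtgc
CCNB2, chr15:59105087-59105145, plus strand: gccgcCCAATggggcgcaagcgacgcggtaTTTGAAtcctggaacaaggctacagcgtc
CDT1, chr16:88803724-88803788, plus strand: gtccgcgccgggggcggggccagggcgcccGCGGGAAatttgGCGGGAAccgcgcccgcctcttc
MCM6, chr2:135876496-135876625, minus strand: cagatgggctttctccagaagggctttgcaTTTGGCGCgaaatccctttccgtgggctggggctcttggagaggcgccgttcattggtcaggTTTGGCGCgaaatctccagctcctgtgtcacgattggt
GINS2, chr16:85688955-85689015, minus strand: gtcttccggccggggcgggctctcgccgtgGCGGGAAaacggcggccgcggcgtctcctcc

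Windows of 300 bases (250 before the start and 50 after it) were matched for 34 of 39 DNA replication genes and for 36 of the 44 cAMP-CREB targets found in the count table. E2F letters were in 51.1% of the 47 replication windows and in 7.13% of all 35116 windows of the table, and CCAAT letters in 59.6% against 34.6%. In the 68 windows of the cAMP-CREB targets the full element TGACGTCA was in 3 (4.41%), against 1.85% of all windows. It was in 2 of the 47 replication windows (4.26%), a similar share. Its shorter form TGACG, which the full element contains, was in 33.8% of the cAMP-CREB windows against 24.6% of all windows. Those backgrounds take in genes that were not compared. In the windows found for 10037 of the 12609 compared genes (79.6%) the shares were 10.2% for E2F letters, 34.8% for CCAAT, 2.78% for TGACGTCA and 31.7% for TGACG, so the share of TGACG in the cAMP-CREB targets was near that of compared genes. Fewer than 80% had a window among the genes called higher (77.3% matched), those called lower (78.9%), the mitosis list (79.5%) and steroidogenesis (50%). The check is void there and no share is given. The compared genes, at 79.6%, were also under 80%, and their shares serve only as a background. A match in these letters is a description of the window and not evidence that a factor binds.

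Transcripts of the receptor and of most enzymes that make cAMP were within 2-fold between the libraries. Of the 12 compared members of the receptor and cyclase list, 0 were called higher and 1 lower, with a median log2 ratio of -0.04 beside 0.01 for all genes. FSHR itself was low throughout, at 92.7 scaled counts in the control, 111 with FSH, 132 with FSK, 73.1 with SC79 and 36.6 with PMA. Its FSK to FSH ratio of 1.19 (0.913 to 1.55) includes 1, so a difference was not detectable at this depth. GNAS, which encodes the stimulatory G protein subunit, was at 50122 scaled counts with FSH and 53121 with FSK, a log2 ratio of 0.08. Among the cyclases, ADCY3 was the member called lower, at 1248 scaled counts with FSH and 476 with FSK (log2 -1.39). Of its 31-base sequence words, 77.5% were found in no other gene (its own words), so reads shared with other genes could move its value. ADCY9 had the highest ratio of the list and was within 2-fold, at 2899.6 scaled counts with FSH and 5252 with FSK (log2 0.86), and ADCY6 stood at log2 0.20.

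Transcripts of PKA subunits, inhibitors and anchors mostly differed little between hormone and drug. Of 15 compared subunits, inhibitors and anchors, 1 was called higher and 0 lower, and the median log2 ratio was -0.06. The catalytic subunits PRKACA and PRKACB had log2 ratios of -0.28 and -0.04, and the regulatory subunit PRKAR1A 0.48. The member called higher was RAPGEF4 (EPAC2), a cAMP-gated exchange factor that does not need PKA, at 124, 165, 377, 147 and 150.4 scaled counts in the control, FSH, FSK, SC79 and PMA libraries. The anchor AKAP12 had 3750.2 scaled counts with FSH and 1928 with FSK (log2 -0.96), just inside 2-fold, while PMA had 10755.

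Phosphodiesterases, which hydrolyse cyclic nucleotides, differed more. Of 10 compared, 5 were called higher with FSK (50%, against the 3.32% of all genes) and 0 lower, and the median log2 ratio was 1.39. That median depends on the minimum count: it was 0.58 with a minimum of 20 scaled counts and 2.16 with 500. PDE3A (ENSG00000172572, chromosome 12, 20369245 to 20684381 on the plus strand of GRCh38) had the highest log2 ratio (4.90, with 1 added to each scaled count) of all genes the naming rule allowed. It was at 22.04 scaled counts in the control, 44.98 with FSH, 1376 with FSK, 24.4 with SC79 and 28.7 with PMA, which is 30.6-fold higher (22.7 to 42.1). FSH stood above the control and far below FSK, and SC79 and PMA stayed near the control. PDE7B was at 372, 819, 6607, 427 and 1150.1 scaled counts in the control, FSH, FSK, SC79 and PMA libraries, 8.07-fold higher (7.50 to 8.69), and again only FSK was far from the rest. The cAMP-specific PDE4D was at 665 scaled counts with FSH and 4889 with FSK, 7.36-fold higher (6.78 to 7.99). PDE4B, of the same family, was at 255 scaled counts with FSH and 908 with FSK, 3.56-fold higher (3.09 to 4.11). PDE1A, which calmodulin activates, was at 112 scaled counts with FSH and 638 with FSK, and at 26.7 with PMA. The other 5 members were within 2-fold, from PDE1C (log2 -0.82) to PDE8A (log2 0.95), a cAMP enzyme with high affinity.

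**Figure D2:**
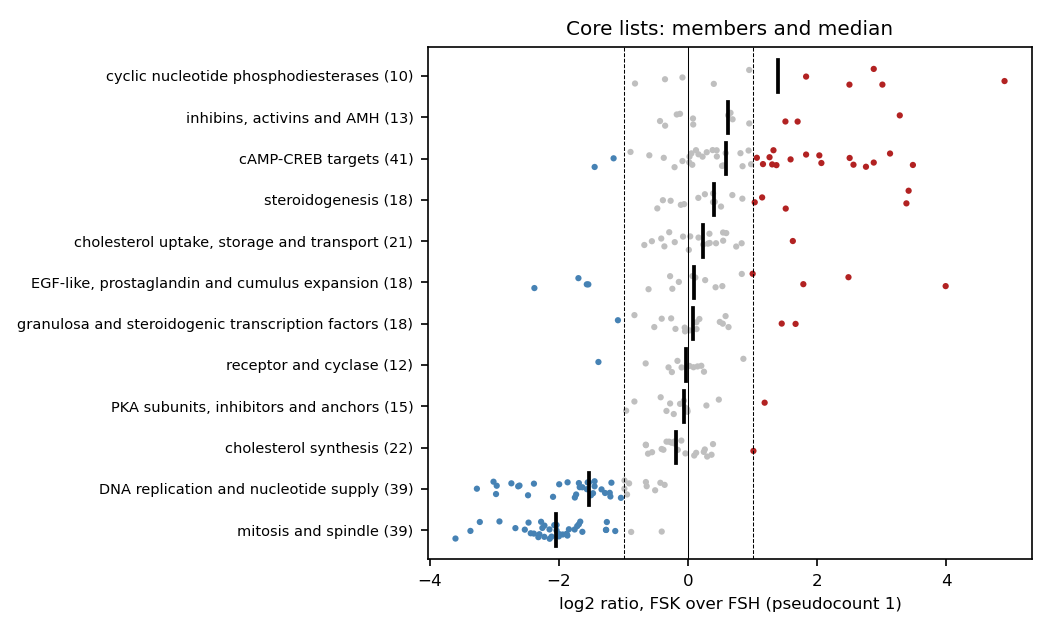
Log2 ratio of FSK over FSH (pseudocount 1) of every compared member of the 12 core lists, 1 point per gene; the number compared is in parentheses and the black bar is the list's median. Red points are at least 2-fold higher and blue points at least 2-fold lower with FSK; the phosphodiesterases have the highest median (1.39, but 0.58, below that of the cAMP-CREB targets, with a minimum of 20 scaled counts) and the mitosis list the lowest (-2.05).

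Targets of cAMP and CREB were mostly above their FSH level. Of 41 compared, 16 were called higher (39.0%, against 3.32% of all genes) and 2 lower. A ratio above 1 was found in 34, and the median log2 ratio was 0.58. NR4A2, an orphan nuclear receptor induced early by cAMP, was at 311 scaled counts in the control, 513 with FSH, 4495 with FSK, 345 with SC79 and 723 with PMA, which is 8.77-fold higher (7.997 to 9.62). Its relatives NR4A3 and NR4A1 were 5.70-fold higher (4.80 to 6.82) and 2.09-fold higher (1.94 to 2.26). STC1, a secreted glycoprotein, was at 277, 563, 6305, 271 and 20124 scaled counts in the control, FSH, FSK, SC79 and PMA libraries. It was 11.2-fold higher (10.3 to 12.2) with FSK than with FSH, and PMA exceeded both. KLF9, a zinc finger repressor, was at 761 scaled counts with FSH and 5145 with FSK, 6.76-fold higher (6.27 to 7.31). RGS2, which shortens G protein signalling, was at 817 scaled counts with FSH and 4830.5 with FSK, 5.92-fold higher (5.49 to 6.38). Of the kinases that phosphorylate the CREB coactivators, SIK1 was 4.19-fold higher (3.86 to 4.56) while SIK2 stayed within 2-fold (log2 0.84); 9.62% of the SIK1 words are its own, so its value is uncertain. The phosphatase gene DUSP1, whose upstream element is printed above, was at 6267 scaled counts in the control, 7728 with FSH, 18538 with FSK, 6057 with SC79 and 9088 with PMA, with FSH slightly above the control and FSK well above FSH. Other members called higher were ID2, BDNF, KLF4, SGK1, CEBPB and CEBPD, with log2 ratios of 2.03, 1.59, 1.37, 1.32, 1.30 and 1.16.

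Of the 41 compared members, 2 were called lower (4.88%), near the 4.51% of all genes. FOSB, an AP-1 subunit, was at 469.8 scaled counts with FSH and 172 with FSK, 2.74-fold lower (2.29 to 3.29) with FSK, and the small GTPase gene GEM at 1328 scaled counts with FSH and 596 with FSK, 2.23-fold lower (2.02 to 2.46). CREB1 and the coactivator CRTC2 had log2 ratios of 0.02 and 0.02. CREM, which encodes both activators and repressors of the family, had a log2 ratio of 0.81, within 2-fold.

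In steroid synthesis a few genes differed strongly and the rest little. Of 18 compared, 5 were called higher (27.8%, against 3.32% of all genes) and 0 lower, with a median log2 ratio of 0.40. CYP19A1 (aromatase, ENSG00000137869, chromosome 15, 51208057 to 51338610 on the minus strand of GRCh38) was at 902, 2568, 27444, 1383 and 1690.5 scaled counts in the control, FSH, FSK, SC79 and PMA libraries. It was 10.7-fold higher (10.3 to 11.1) with FSK than with FSH, and the FSH library was above the control. CYP11A1, the side-chain cleavage enzyme that makes pregnenolone, was at 826 scaled counts in the control, 1192 with FSH, 12451 with FSK, 970.3 with SC79 and 671 with PMA, 10.4-fold higher (9.84 to 11.1), with the 4 other libraries far below FSK. STAR, which carries cholesterol into mitochondria, was at 1012, 3535, 10091, 1335 and 5383 scaled counts in the control, FSH, FSK, SC79 and PMA libraries, 2.85-fold higher (2.75 to 2.97) with FSK than with FSH, and PMA lay between them. The order FSK above FSH above control held for these 3 genes, and FSH was nearer the control than FSK on the count scale in each. By ratio this held for CYP19A1 and CYP11A1, while STAR with FSH was nearer its FSK level than its control level. AKR1C1 and AKR1C2, keto-steroid reductases that share sequence (64.3% and 51.8% own words), were 2.22-fold higher (1.98 to 2.48) and 2.05-fold higher (1.71 to 2.47) and were lower with PMA than in any other library. The electron donors FDX1 and POR, at log2 0.39 and 0.51, and HSD17B1, at -0.06, were within 2-fold. CYP17A1, the theca enzyme of androgen synthesis, had 6.997 scaled counts with FSH and 13.6 with FSK and was not compared.

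**Figure D3:**
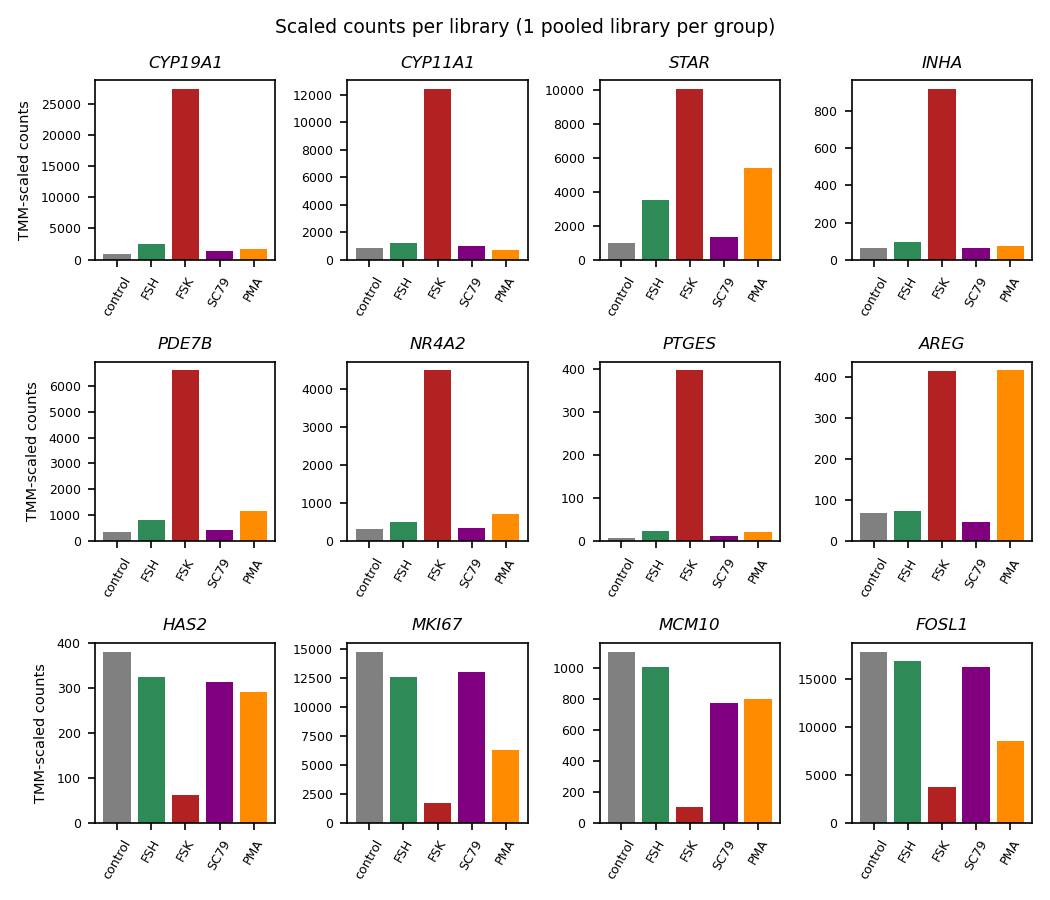
TMM-scaled counts of 12 genes (vertical axes, linear from 0, a separate scale per gene) in the control, FSH, FSK, SC79 and PMA libraries, 1 bar per library and no error bars since each group is 1 pooled library. CYP19A1 rises from 2568 with FSH to 27444 with FSK, while MKI67 goes from 12550 to 1654.

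Transcripts for cholesterol uptake, transport and synthesis were mostly within 2-fold between hormone and drug. In the uptake, storage and transport list 1 of 21 genes was called higher and 0 lower (median log2 0.23), and in the synthesis list 1 of 22 higher and 0 lower (median -0.18). The export transporter ABCG1 was the member called in the first, at 115 scaled counts in the control, 141 with FSH, 436 with FSK, 169 with SC79 and 542 with PMA. The HDL receptor SCARB1 (log2 0.54) and the lysosomal exporter NPC1 (0.75) were within 2-fold. In the second list the sterol reductase TM7SF2 was at log2 1.01, a call lost under 3 of 4 other scalings, and the synthase gene HMGCS1 at -0.33.

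Of the inhibins, activins and their regulators, 3 of 13 were called higher (23.1%, against 3.32% of all genes) and 0 lower. The median log2 ratio was 0.62. INHA, the alpha subunit that turns activin chains into inhibins, was at 61.5, 93.96, 922, 63.6 and 74.2 scaled counts in the control, FSH, FSK, SC79 and PMA libraries, 9.81-fold higher (7.92 to 12.3); the other 4 libraries were low and close together. The beta A subunit INHBA was at 1342 scaled counts in the control, 1610.2 with FSH, 5224 with FSK, 1281 with SC79 and 2907 with PMA. Follistatin (FST), which binds and neutralises activin, was at 1147, 1234, 3514, 943 and 1079 scaled counts in the control, FSH, FSK, SC79 and PMA libraries. For INHBA the PMA library stood between FSH and FSK, while for FST it stood with the other 3. AMH, the anti-Müllerian hormone, had a log2 ratio of 0.08.

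Transcription factors of granulosa identity were mostly at the same level, with 2 of 18 called higher and 1 lower and a median log2 ratio of 0.08. NR5A1, FOXL2, GATA6 and GATA4 had log2 ratios of -0.05, 0.13, 0.13 and 0.63. FOXO1, a factor that AKT keeps out of the nucleus, was at 660.1 scaled counts in the control, 822 with FSH, 2609 with FSK, 680.1 with SC79 and 909 with PMA, 3.18-fold higher (2.93 to 3.44). NRG1, an EGF-family ligand kept in this list, was at 372, 368, 1007, 337 and 1793 scaled counts in the control, FSH, FSK, SC79 and PMA libraries. SOX9, a factor of the testis lineage, was at 3221 scaled counts with FSH and 1516 with FSK, 2.13-fold lower (1.997 to 2.26).

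Genes of the ovulatory response were called in both directions: of 18 compared, 4 were called higher and 4 lower (22.2% each). Over all genes 3.32% were higher and 4.51% lower. The list's median log2 ratio was 0.09. PTGES, the terminal prostaglandin E2 synthase, was at 7.35 scaled counts in the control, 23.99 with FSH, 396 with FSK, 11.7 with SC79 and 20.8 with PMA, 16.5-fold higher (10.9 to 26.1), and the cyclooxygenase PTGS2 at 539.9, 663, 2288, 476 and 4123 scaled counts in the control, FSH, FSK, SC79 and PMA libraries, 3.45-fold higher (3.16 to 3.77). The EGF-like ligand AREG was at 68.9 scaled counts in the control, 72.97 with FSH, 413 with FSK, 46.6 with SC79 and 416 with PMA, 5.66-fold higher (4.40 to 7.37), with FSK and PMA close together and above the other 3. The gap junction protein gene GJA1 stood at the threshold, at 39620.3 scaled counts with FSH and 79259.6 with FSK, with an interval of 1.98 to 2.02 for the ratio, and was not called under any of the 4 other scalings. HAS2, which makes the hyaluronan of the expanding cumulus, was among the lower genes, at 382, 326, 61.7, 314 and 291 scaled counts in the control, FSH, FSK, SC79 and PMA libraries, 5.28-fold lower (3.99 to 7.09) with FSK. PTX3, which cross-links that hyaluronan, was 2.98-fold lower (2.53 to 3.51), the prostaglandin receptor PTGER4 3.30-fold lower (2.33 to 4.77) and the oocyte growth factor KITLG 2.92-fold lower (2.66 to 3.22). For HAS2 and KITLG only the FSK library was low, while for PTX3 and PTGER4 the PMA library was low as well.

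Among all lists described here, the mitosis list had the lowest median. All 39 compared members had a ratio below 1, 37 were called lower (94.9%, against 4.51% of all genes), and the median log2 ratio was -2.05. MYBL2 (ENSG00000101057, chromosome 20, 43667019 to 43716496 on the plus strand of GRCh38), a factor that turns on mitotic genes, was the lowest, at 3944 scaled counts in the control, 3383 with FSH, 277 with FSK, 2944 with SC79 and 1700.4 with PMA, 12.2-fold lower (10.8 to 13.9) with FSK. MKI67, the proliferation antigen Ki-67, was at 14758, 12550.1, 1654, 13032 and 6251 scaled counts in the control, FSH, FSK, SC79 and PMA libraries, and the kinase gene AURKB at 1317 scaled counts in the control, 1213 with FSH, 129 with FSK, 1359 with SC79 and 566 with PMA. In both genes FSH stayed close to the control and to SC79, PMA was lower and FSK lowest. TOP2A, which untangles DNA, was 4.996-fold lower (4.78 to 5.22), CCNB1, the mitotic cyclin, 3.11-fold lower (2.91 to 3.34), and PLK1 4.01-fold lower (3.70 to 4.35). The members not called were BUB3 (log2 -0.41) and ECT2 (-0.88). In bulk RNA, fewer dividing cells and less RNA per dividing cell cannot be told apart.

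In DNA replication and nucleotide supply 30 of 39 genes were called lower (76.9%, against 4.51% of all genes) and 0 higher. All 39 ratios were below 1, and the median log2 ratio was -1.54. MCM10, a replication initiation factor, was at 1106, 1009.5, 104, 772 and 802 scaled counts in the control, FSH, FSK, SC79 and PMA libraries, 9.75-fold lower (7.92 to 12.1). RRM2, the regulated subunit of ribonucleotide reductase, was at 4593 scaled counts in the control, 4205 with FSH, 533 with FSK, 3873 with SC79 and 2964 with PMA, 7.88-fold lower (7.19 to 8.66), and the helicase subunits MCM2 to MCM7 had log2 ratios from -2.09 to -1.19. In both genes the FSK library was far below the other 4, which lay closer together. Thymidylate synthase TYMS was 6.68-fold lower (6.13 to 7.29), thymidine kinase TK1 6.21-fold lower (5.67 to 6.82), and the licensing factor CDT1 5.60-fold lower (4.84 to 6.52). PCNA (log2 -0.99) and RPA2 (-0.36) were among the 9 within 2-fold. Of 20 G1 cyclins, CDK inhibitors and E2F genes, 9 were lower and 0 higher (median -0.75), with E2F1 at 1733 scaled counts with FSH and 254 with FSK, E2F8 8.80-fold lower (6.29 to 12.6), and cyclin D1 (CCND1) at 28965, 26689, 12243, 26448 and 51175 scaled counts in the control, FSH, FSK, SC79 and PMA libraries, low with FSK and high with PMA.

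By log2 ratio with 1 added to each scaled count, the genes furthest above FSH under the naming rule (a gene symbol and at least 80% own sequence words) were, after PDE3A, SPINK4, IL18R1, the glutamate transporter gene SLC1A3, LGALS12, the RAS-like RASD1, MRO, the protease inhibitor TFPI2, PTGES, IL11, the neuropeptide NPY, DNER, DMBT1, C7orf57 and GRIA4, a glutamate receptor subunit. SLC1A3 was at 92.7 scaled counts in the control, 100.0 with FSH, 2783 with FSK, 83.7 with SC79 and 109.9 with PMA, 27.8-fold higher (22.8 to 34.4), with only FSK apart from the rest. RASD1, known as a dexamethasone-induced gene, was at 217, 416, 9028, 269 and 2374 scaled counts in the control, FSH, FSK, SC79 and PMA libraries, and PMA was the next highest. The cytokine gene IL11 was at 1096 scaled counts in the control, 1498 with FSH, 21894 with FSK, 871 with SC79 and 9715 with PMA, 14.6-fold higher (13.9 to 15.4), and TFPI2 at 191, 249.9, 4507, 147 and 16104 scaled counts in the control, FSH, FSK, SC79 and PMA libraries, where PMA was higher still. NPY was at 237 scaled counts in the control, 221 with FSH, 3138 with FSK, 149 with SC79 and 57.4 with PMA, lowest with PMA. SPINK4, IL18R1 and MRO had at most 8.0 scaled counts with FSH, so their ratios have wide intervals. Without the added count, SPINK4, at 36.1-fold (13.8 to 134), and IL18R1, at 32.3-fold (16.1 to 75.7), stood above PDE3A, and the 3 intervals overlap.

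The 15 lowest ratios under the same rule were in MYBL2, ZNF367, MCM10, AURKB, CLSPN, E2F8, TCF19, TP73, DTL, RRM2, FAM111B, CDC45, MKI67 and CENPM and in STRA6, the retinol-binding protein receptor. Replication and mitosis genes make up much of this group. CLSPN, a replication checkpoint adaptor, was at 1459, 1445, 162, 1214 and 1239 scaled counts in the control, FSH, FSK, SC79 and PMA libraries, 8.91-fold lower (7.55 to 10.6), and DTL, the substrate receptor of a ubiquitin ligase that targets CDT1, was 7.96-fold lower (6.86 to 9.27). STRA6 was at 469 scaled counts in the control, 406 with FSH, 55.4 with FSK, 523 with SC79 and 538 with PMA, with FSK alone low.

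By number of counts, which is not corrected for gene length, the largest gain was in IGFBP5, a binding protein of insulin-like growth factors, at 210600.0, 237039, 555896, 201540.0 and 198638 scaled counts in the control, FSH, FSK, SC79 and PMA libraries, 2.35-fold higher (2.33 to 2.36). Next came ANTXR1, GALNT1, CD55, CPE, SERPINE2, FAT1, PLOD2, SPTBN1 and GJA1. The complement inhibitor gene CD55 was at 9017 scaled counts in the control, 10789 with FSH, 81125 with FSK, 9709.7 with SC79 and 7883 with PMA, 7.52-fold higher (7.37 to 7.67), and the collagen lysyl hydroxylase PLOD2 at 10094, 14859, 59132, 9942 and 24696 scaled counts in the control, FSH, FSK, SC79 and PMA libraries. The largest losses included MYH9, TUBB, LMNA, TUBA1B, HMGA1, COTL1, CAPN2, TAGLN and CLDN11. Non-muscle myosin MYH9 was at 198299 scaled counts in the control, 182367 with FSH, 83697 with FSK, 164538 with SC79 and 148236 with PMA, 2.18-fold lower (2.16 to 2.20), with FSK lowest of the 5. The tubulin genes TUBB and TUBA1B share sequence with their relatives (74.2% and 68.6% own words), and were 2.50-fold lower (2.46 to 2.53) and 3.14-fold lower (3.09 to 3.19).

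**Figure D4:**
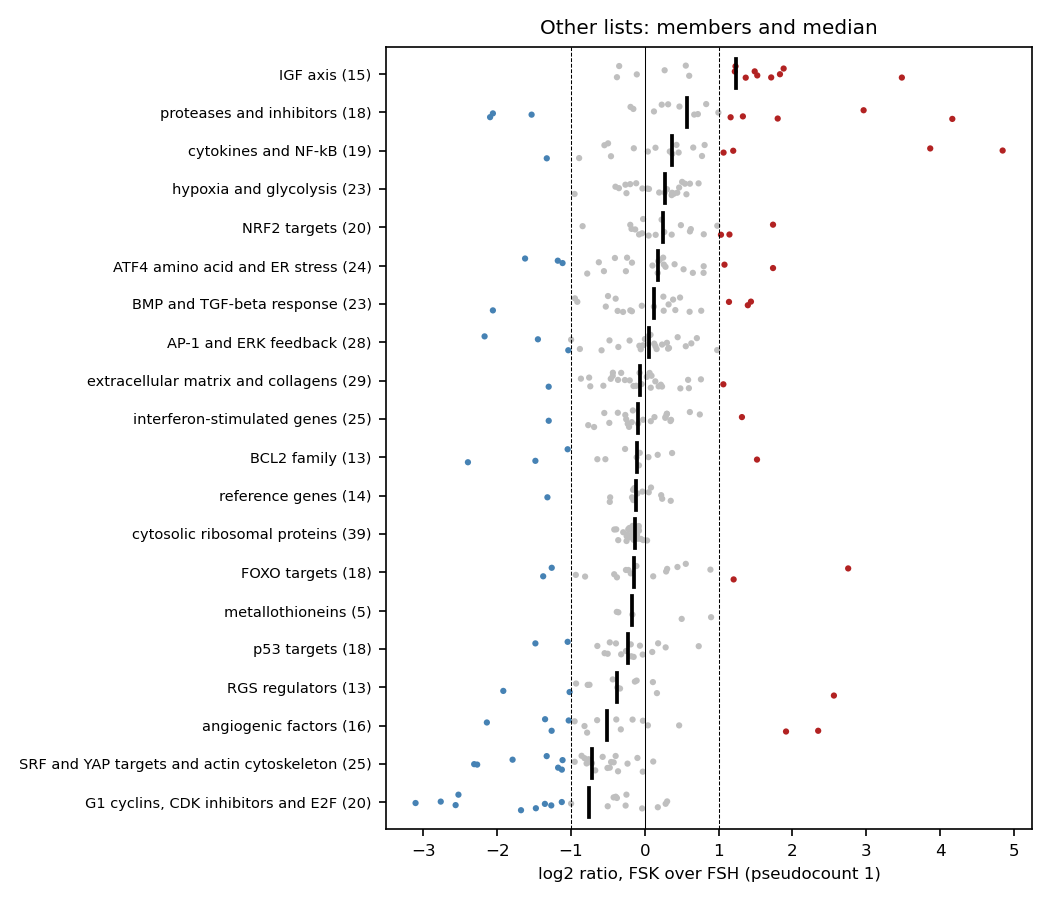
Log2 ratio of FSK over FSH (pseudocount 1) of every compared member of the 20 other lists, 1 point per gene; the number compared is in parentheses and the black bar is the list's median. Red points are at least 2-fold higher and blue points at least 2-fold lower with FSK; the IGF axis has the highest median (1.23) and the G1 cyclin, CDK inhibitor and E2F list the lowest (-0.75).

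The insulin-like growth factor axis had the highest median among the other lists, at a log2 ratio of 1.23. Of 15 compared, 9 were called higher (60%, against 3.32% of all genes) and 0 lower. The ligand IGF1 was at 67.9, 75.96, 273, 61.4 and 7.92 scaled counts in the control, FSH, FSK, SC79 and PMA libraries, 3.59-fold higher (2.77 to 4.70), and its receptor IGF1R at 10142 scaled counts in the control, 11371 with FSH, 26493 with FSK, 10638 with SC79 and 17522 with PMA, 2.33-fold higher (2.28 to 2.38). The adaptor IRS1 was 2.88-fold higher (2.72 to 3.05), and PAPPA, the protease that frees IGF from IGFBP4, 2.81-fold higher (2.75 to 2.87). IGFBP4 was at 657, 2359.9, 7739, 644 and 766 scaled counts in the control, FSH, FSK, SC79 and PMA libraries, with FSH above the control, FSK above FSH, and SC79 and PMA near the control. IGFBP1 and IGFBP3 were 3.69-fold higher (3.35 to 4.07) and 2.58-fold higher (2.50 to 2.66); STC1, given above, is in this list as an inhibitor of PAPPA.

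Genes of actin and of serum response factor and YAP were mostly below their FSH level: 7 of 25 were called lower and 0 higher, 24 had a ratio below 1, and the median log2 ratio was -0.72. The smooth muscle actins ACTG2 and ACTA2 were 4.97-fold lower (4.53 to 5.47) and 3.46-fold lower (3.36 to 3.57). ANKRD1, a YAP target, was at 978 scaled counts in the control, 812 with FSH, 167 with FSK, 654 with SC79 and 1138 with PMA, 4.85-fold lower (4.09 to 5.78), with FSK alone far below the others. ACTA2 was at 21784, 19183, 5542, 17302 and 4444 scaled counts in the control, FSH, FSK, SC79 and PMA libraries, with FSK and PMA both low. In the AP-1 and ERK feedback list 3 of 28 were lower and 0 higher (median 0.05): FOSB, JUN (log2 -1.04) and FOSL1, the last at 17835 scaled counts in the control, 16896 with FSH, 3752 with FSK, 16275 with SC79 and 8478 with PMA, 4.50-fold lower (4.34 to 4.67).

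Proteases and their inhibitors were called in both directions, with 5 of 18 higher and 3 lower (median log2 0.57). SERPINE2 was 3.49-fold higher (3.44 to 3.54) and the protease gene HTRA3 7.97-fold higher (5.77 to 11.3), while the plasminogen activators PLAT and PLAU were 4.31-fold lower (3.42 to 5.48) and 2.90-fold lower (2.79 to 3.004). PLAT was at 480.2, 406, 94.1, 360.2 and 4612 scaled counts in the control, FSH, FSK, SC79 and PMA libraries, so PMA was the high library and FSK the low one. In BMP and TGF-beta response 3 of 23 were higher and 1 lower (median 0.12); the receptor genes TGFBR1 and TGFBR2 were 2.71-fold higher (2.63 to 2.80) and 2.21-fold higher (2.13 to 2.28), and the BMP antagonist GREM1 2.64-fold higher (2.30 to 3.04). Of 16 angiogenic factors 2 were higher and 4 lower (median -0.52), with FGF7 5.11-fold higher (4.53 to 5.79), ANGPT1 3.78-fold higher (3.28 to 4.37) and FGF1 4.45-fold lower (3.42 to 5.88). Of 19 cytokine and NF-kB genes 4 were higher and 1 lower (median 0.37), with IL6 2.30-fold higher (2.10 to 2.52), CXCL8 2.10-fold higher (1.99 to 2.21) and IL32 2.51-fold lower (2.32 to 2.72).

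Stress and survival genes showed smaller counts of calls. In the ATF4 and ER stress list 2 of 24 were higher and 3 lower (median log2 0.18): the cystine transporter gene SLC7A11 was 3.34-fold higher (3.24 to 3.43), and the serine synthesis enzyme PSAT1 3.08-fold lower (2.87 to 3.31). In the BCL2 family 1 of 13 was higher and 3 lower (median -0.11): the pro-death BCL2L11 (BIM) was at 1656 scaled counts in the control, 1934 with FSH, 5552 with FSK, 1719 with SC79 and 2195 with PMA, 2.87-fold higher (2.72 to 3.03), BCL2 was 5.43-fold lower (3.53 to 8.67), and the pro-death PMAIP1 and BBC3 were 2.80-fold lower (2.51 to 3.13) and 2.06-fold lower (1.89 to 2.26). NRF2 targets had 3 of 20 higher and 0 lower (median 0.25), p53 targets 0 of 18 higher and 2 lower (-0.22), and FOXO targets 2 of 18 higher and 2 lower (-0.15), with PDK4 2.31-fold higher (2.01 to 2.66) and GADD45A 2.60-fold lower (2.46 to 2.74). RGS regulators had 1 of 13 higher and 2 lower (-0.37), and interferon-stimulated genes 1 of 25 and 1 (-0.09).

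Several lists had few or no calls, beside 3.32% higher and 4.51% lower of all compared genes. In lists this short such counts are near those shares. Hypoxia and glycolysis had 0 of 23 called in either direction (median log2 0.27), metallothioneins 0 of 5 (-0.17), and extracellular matrix and collagens 1 of 29 higher and 1 lower (-0.07), the lower one being tenascin C (TNC, log2 -1.30). Of 14 reference genes, 0 were higher and 1 lower, TUBB (median -0.12). All 39 cytosolic ribosomal protein genes were within 2-fold, with a median of -0.14 and 38 ratios below 1. The 13 mitochondrially encoded genes compared ranged from log2 -0.30 to 0.21.

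Counts per transcript, as the authors' quantifier assigned them, were examined for the 158 core-list genes with at least 2 transcripts reaching 100 scaled counts in the FSH or FSK library. In 28 of these genes some transcript's share of the gene changed by at least 10 percentage points, and in 7 by at least 20. For CYP19A1 the shares barely differed: the transcript from the start at 51243064 on chromosome 15 (ENST00000559878.5) held 39.8% with FSH and 39.1% with FSK, and that from the distal start at 51338610 (ENST00000396402.5) 38.7% and 40.7%. Both rose together, from 1022 to 10725 and from 994 to 11171 scaled counts. For PDE7B the transcript starting at 135851696 on chromosome 6, downstream of the element printed above (ENST00000308191.10), went from 563 scaled counts with FSH to 5396 with FSK and from 68.8% to 81.7% of the gene. The PDE7B transcript from the later start at 136038291 (ENST00000615259.4) went from 253 to 1204. For NR4A2, ENST00000339562.8 went from 343 to 3802 scaled counts and from 66.9% to 84.6%, while ENST00000409572.5 went from 137 to 224. In CREM, of the transcripts that start within the gene on chromosome 10, ENST00000473940.5 (start 35195127) went from 34.4 to 121 scaled counts and ENST00000356917.9 (start 35195147) from 64.4 to 124. Of those from upstream starts, ENST00000460270.5 (35127117) went from 48.6 to 193 and ENST00000374726.7 (35126923) from 92.01 to 151. ENST00000460270.5 was lowest with FSH, since it had 151 scaled counts in the control, 175 with SC79 and 119 with PMA. In the control, ENST00000374726.7 had 98.1 scaled counts, ENST00000473940.5 had 35.2 and ENST00000356917.9 had 32.1. Whether the kinds of start differ cannot be decided from these values. The largest shift in share was in the cyclase gene ADCY7, which was within 2-fold as a whole: ENST00000254235.7 went from 600.01 to 122 scaled counts, 80.6% to 25.9% of the gene, while ENST00000394697.6, which had 0.00858 scaled counts with FSH, had 219 with FSK. Assignment error between overlapping transcripts is not in these values.

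**Figure D5:**
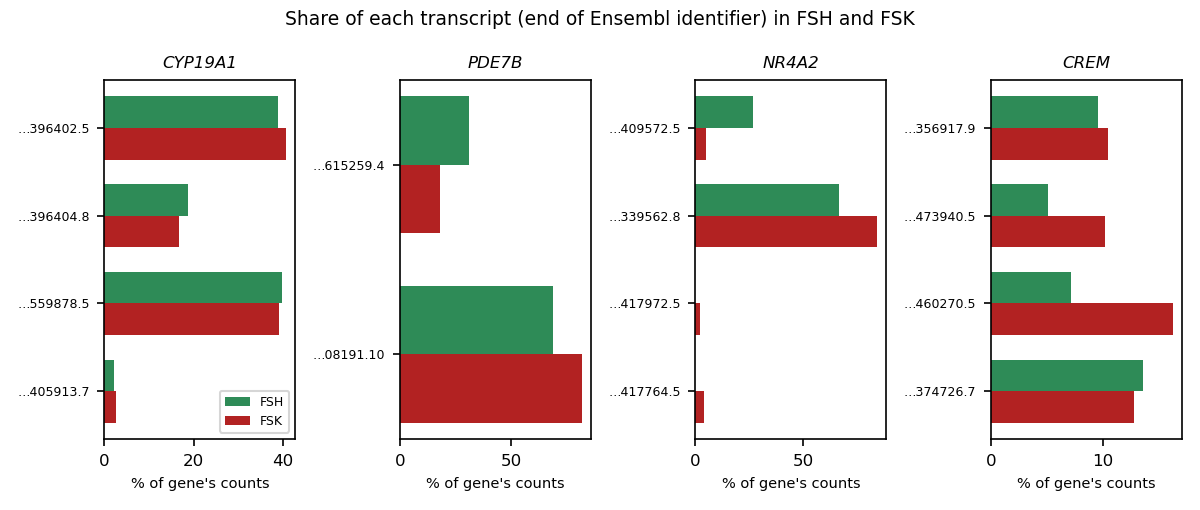
Share of each transcript in its gene's scaled counts (percent, horizontal) with FSH (green) and FSK (red) for CYP19A1, PDE7B, NR4A2 and CREM; transcripts with at least 100 scaled counts in the FSH or FSK library are shown by the end of their Ensembl identifier, with no error bars since each group is 1 library. The CYP19A1 shares differ by at most 2.11 percentage points, while ENST00000339562.8 of NR4A2 goes from 66.9% to 84.6%.

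A few of the most extreme ratios were in pseudogenes that share nearly all their sequence with expressed genes. ITGB1P1, a processed pseudogene of the integrin gene ITGB1, was listed at 0 with FSK and at 811 scaled counts with FSH, at least 258-fold lower against a floor of 3 counts in that library (the exact interval begins at 209.6-fold), and it was also at 0 in the control. H3F3AP4 was likewise at 0 with FSK and 416 with FSH, at least 133-fold lower (interval from 107-fold), and AC233968.1 at 0 with FSH and 116 with FSK, at least 38.7-fold higher (from 30.97-fold). Their own sequence words were 0%, 0% and 4.96%, so these values are uncertain. Of all calls, 377 higher and 500 lower genes had at least 80% own words.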

How the data were processed

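Poly(A) RNA of KGN cells was sequenced as paired-end NEBNext Ultra libraries, per the labels' protocols, and strand specificity is not given in the sources used here, so antisense reads cannot be told apart. Trimmomatic, kallisto and edgeR are named in the submitters' processing notes; build and index were not given in the sources used here. The authors deposited estimated counts per transcript, per the file headers, and a normalized signal, which the authors derived from those counts and which is used here only as an alternative. All sample columns were matched, with 0 left over.

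Estimated counts were summed per gene name, rounded and scaled by TMM over the 5 libraries (edgeR 4.0.16, R 4.3.3); transcripts with no gene name (303, at most 0.068% of a library) were left out. Of the named transcripts 91.0% had an identifier in GENCODE release 29, the source of gene coordinates (GRCh38). Log2 ratios used a pseudocount of 1. A call needed a 2-fold difference and 100 scaled counts in the higher library. Intervals are exact conditional binomial (Clopper-Pearson); a library at 0 was given a floor of 3 counts. With 1 library per group no test across genes was made. Own sequence is the share of a gene's 31-base words absent from other genes. The functions were tested on simulated data. Other calculations used Python 3.11.15 with scipy 1.17.1, pandas 2.3.3 and numpy 2.4.6; figures used matplotlib 3.10.9. DESeq2 1.42.0 size factors, other scalings, minimums and pseudocounts were tried as alternatives.

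The genes named were the 15 highest and 15 lowest ratios among called genes with a symbol and at least 80% own words, the 10 largest count differences in each direction, members of the core lists, and, from each other list, the 3 highest and 3 lowest ratios among members with at least 100 scaled counts. The comparison, its members and the lists were chosen with earlier results of these data known. A few genes that this rule names are not reported here.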

Additional observations from a re-analysis of the deposited data

How the results depend on the processing

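Of 11 alternatives, 10 kept both counts of called genes within 1.5 times of 418 higher and 569 lower. These were 4 other scalings (392 to 412 higher, 578 to 599 lower), minimums of 20 (614 and 755) and 500 (288 and 391), a pseudocount of 10 (405 and 546), genes with at least 80% own words (377 and 500), protein-coding transcripts (393 and 581) and counting intervals wholly past 2-fold (319 and 427). With no minimum the counts were 2784 higher and 1813 lower, 60.6% of the calls being higher against 42.4%, because genes with few counts then enter. Of 209 called genes open to naming, GJA1 lost its call under all 4 other scalings, TM7SF2 under 3, and AKR1C2 under library totals and a pseudocount of 10, which also lost RGS9. List medians changed sign in 3 cases: the EGF-like and prostaglandin list was at -0.14 and BMP and TGF-beta response at -0.040 with a minimum of 500, and metallothioneins at 0.17 with a minimum of 20. The phosphodiesterase median, 1.39 in the report, was 0.58 with a minimum of 20 and 2.16 with a minimum of 500. The other scalings moved the median of all genes by at most 0.033 (log2). No paired analysis was possible because each group has 1 library. Depth limits genes such as FSHR, whose interval includes equality, and counting intervals do not include variation between cultures.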
